A study of Mus musculus with 8 samples.

Results

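The arrays carried probes for 1881 mouse miRNAs, of which 3 are described here: mmu-miR-203-3p and mmu-miR-203-5p, the 2 strands of the miR-203 hairpin, and mmu-miR-205-5p, the 5p strand of the miR-205 hairpin. They were chosen by name, as keratinocyte miRNAs of the differentiating and of the basal epidermis; the rule used no measured value, but earlier results of these data were known. They are written below without the species prefix. All 3 were detected on all 8 arrays and belonged to the 222 miRNAs that were tested. Skin came from male mice of the genotype Ncstn flx/flx; Krt14 CreER+/-, in both groups. The gene Ncstn makes nicastrin, which is part of γ-secretase, the protease that releases the active fragment of Notch receptors, and the Cre recombinase, driven by the promoter of the basal keratin gene Krt14, acts once tamoxifen is given. The NcstnΔKC group (n = 4) received tamoxifen by gavage, 20 mg per kg of body weight on each of 5 days from an age of 8 weeks and again every 10 days. The normal group (n = 4) received corn oil instead, so exposure to tamoxifen and recombination of Ncstn cannot be told apart. Tissue was taken at 16 weeks and is called lesional skin in the labels of both groups. Ncstn mRNA is not measured by a miRNA array, so its loss was not checked. Nothing in the labels states that the samples of a group came from different mice, and p-values therefore speak only of the spread among the deposited samples, part of which may be technical. The samples are named normal 1 to 4 and NcstnΔKC 1 to 4.

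A miRNA hairpin is cut into a 5p and a 3p strand, and the strand retained in an Argonaute protein pairs with mRNAs mainly through its seed, bases 2 to 8. In the epidermis, miR-203 is known to appear as keratinocytes leave the basal layer, where it represses the basal transcription factor gene Trp63 and limits further division. miR-205 is abundant in basal and follicular progenitor keratinocytes and is known to favour PI3K and AKT signalling by repressing its inhibitors. Notch signalling promotes the step from basal to suprabasal keratinocyte.

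The mature strands are shown first because each carries a seed of its own, with the seed in capitals (RefSeq, GRCm38.p6). No other mature mouse miRNA of that table shares any of the 3 seeds.
miR-203-3p: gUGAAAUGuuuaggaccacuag
miR-203-5p: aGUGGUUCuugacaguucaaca
miR-205-5p: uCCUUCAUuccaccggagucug
Both miR-203 strands come from one precursor, shown with the 5p and then the 3p strand in capitals, so the strands are not independent genes.
Mir203 hairpin: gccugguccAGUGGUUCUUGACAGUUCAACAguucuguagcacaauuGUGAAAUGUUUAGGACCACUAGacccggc
Mir205 hairpin: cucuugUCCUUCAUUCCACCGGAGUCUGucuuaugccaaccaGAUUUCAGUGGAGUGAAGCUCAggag
The Mir203 hairpin lies at chr12:112130880-112130955 on the plus strand (GRCm38.p6), between the genes Aspg and Kif26a. A second annotated hairpin, miR-203b, overlaps it on the opposite strand and has no probe on the array. The Mir205 hairpin lies at chr1:193507463-193507530 on the minus strand, within the span of the long noncoding RNA gene Mir205hg.

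The probes are short DNA strands complementary to the 3′ end of each miRNA, and those of one miRNA differ in how far they reach into its 5′ end. The 4 probes of miR-203-5p differed in whether they were detected, so they are printed with the bases beyond the shortest one in capitals.
A_54_P3353: tgttgaactgtcaagaac
A_54_P3354: tgttgaactgtcaagaacC
A_54_P3355: tgttgaactgtcaagaacCA
A_54_P3356: tgttgaactgtcaagaacCAC
The longest pairs with bases 2 to 22 of miR-203-5p and has its target at chr12:113369102-113369121 (mm9, the build of the scanner files). miR-203-3p has probes of 17 and 18 bases, the longer at chr12:113369143-113369159, and miR-205-5p has probes of 15 and 16 bases, the longer at chr1:195333670-195333684. The exact target of every one of these probes occurs in 1 mature mouse miRNA of the RefSeq table. Each of the 3 miRNAs was read by 30 spots per array.

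Detection ranged from 235 to 273 miRNAs on normal arrays and from 198 to 238 on NcstnΔKC arrays. A miRNA counted as detected where at least 50% of the spots of 1 of its probes stood well above background. Signals are background-subtracted intensities divided by each array's 75th percentile over the 301 probes detected on all 8 arrays, summed over a miRNA's probes and given as log2. That percentile was 1215 to 1314 on normal and 922 to 1160 on NcstnΔKC arrays, so scaling moved NcstnΔKC signals up against normal signals. A single slide carried all 8 arrays, with the normal arrays in one row and the NcstnΔKC arrays in the other by the positions in the file names, so group and row of the slide cannot be told apart. Of the 222 miRNAs tested with limma, 42.8% passed a Benjamini-Hochberg adjusted p of 0.05, and the median log2 difference was -0.23. Every difference below is NcstnΔKC minus normal.

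In NcstnΔKC skin both strands of miR-203 were lower than in normal skin, the 3p strand 1.60-fold and the 5p strand 1.78-fold, while the basal miRNA miR-205-5p was 1.38-fold higher without passing the test. Among all tested miRNAs 27.9% were called lower and 14.9% higher, and with 3 members, 2 of them from one hairpin, the count of 2 lower was not set against that background by a test. The falls of both miR-203 strands turned to values just above 0 under one scaling, the 75th percentile over all probes. Of 8 normalizations, miR-203-3p passed under 6, miR-203-5p under 3 and miR-205-5p under 4. In bulk skin, fewer cells of a type and less of a miRNA per cell cannot be told apart.

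The 3p strand of miR-203, the one with the well-known role in epidermal differentiation, had scaled log2 signals of 2.97, 2.89, 2.93 and 2.79 in normal 1 to 4. In NcstnΔKC 1 to 4 they were 2.45, 2.48, 2.03 and 1.89. Every NcstnΔKC sample lay below every normal sample, and NcstnΔKC 3 and 4 lay lowest. The highest correlation of signals with an array of the same group was 0.995 for NcstnΔKC 3 and 4, and 0.948 to 0.984 elsewhere. Whether NcstnΔKC 3 and 4 came from different mice is not stated. Groups without overlap were found for 36.9% of tested miRNAs, with 23.4% separated downwards and 13.5% upwards. The group levels were 2.89 ± 0.08 and 2.21 ± 0.30 (SD, n = 4 each). The log2 difference was -0.68 ± 0.17 (SE, 95% interval -1.07 to -0.29, limma adjusted p = 0.0139). Measured from the median of the tested miRNAs it was -0.45, and it stood 63rd of 222 from the most lowered. The call was lost without NcstnΔKC 3 (adjusted p = 0.0530).

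Before any scaling, the 18-base probe of miR-203-3p read 6611 ± 351 intensity units in the normal group and 3491 ± 712 in the NcstnΔKC group (SD, n = 4 each), and the 17-base probe 2755 ± 107 and 1461 ± 340. Both probes gave a log2 difference of -0.68 after scaling. Among the spots of one miR-203-3p probe on one array the coefficient of variation was at most 11%.

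**Figure D1:**
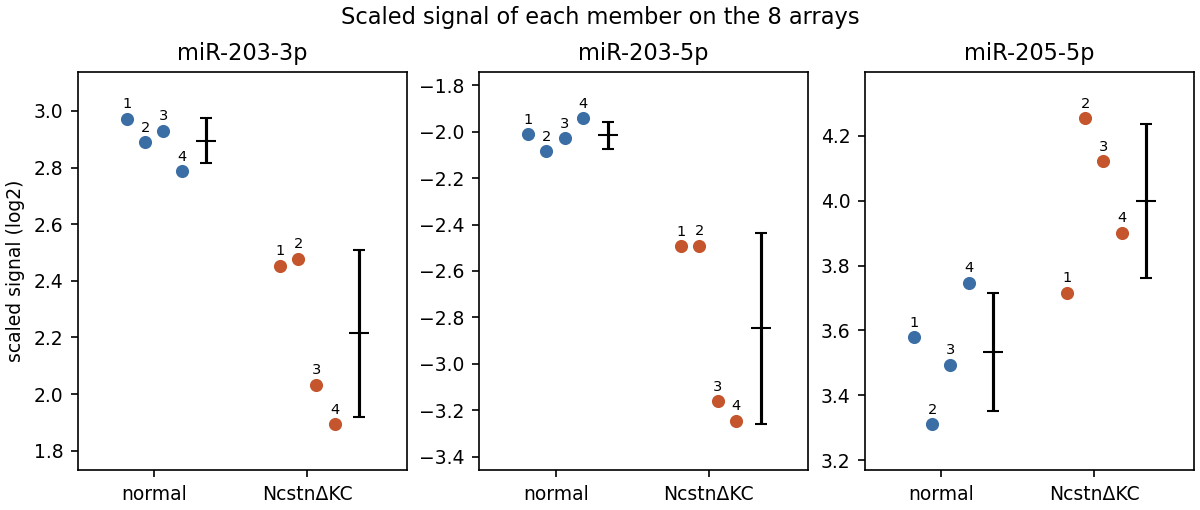
Scaled log2 signal (vertical axes, each with its own range) of the 3 miRNAs in normal (blue) and NcstnΔKC (orange) skin; each point is 1 array with its replicate number, and the bar beside each group is mean ± SD (n = 4). Both miR-203 strands are separated between the groups, whereas for miR-205-5p NcstnΔKC 1 (3.72) lies below normal 4 (3.75).

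The 5p strand of miR-203, the partner strand from the same hairpin, gave dim signals. Its scaled log2 signals were -2.01, -2.08, -2.03 and -1.94 across the normal samples (1 to 4), against -2.49, -2.49, -3.16 and -3.24 for NcstnΔKC 1 to 4. The groups did not overlap, and the same samples as for the 3p strand, NcstnΔKC 3 and 4, were lowest. The group levels were -2.02 ± 0.06 and -2.85 ± 0.41 (SD, n = 4 each). The log2 difference was -0.83 ± 0.21 (SE, 95% interval -1.30 to -0.36, limma adjusted p = 0.0139), or -0.60 from the median of the tested miRNAs. Leaving out any single sample kept the call, with an adjusted p of at most 0.0488, but the strand passed under only 3 of 8 normalizations.

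The probes of miR-203-5p differed in detection. The 21-base probe was detected on all 8 arrays, the 20-base probe on 5, the 19-base probe on 1 and the 18-base probe on 0. The 21-base probe read 199.8, 185.8, 193.7 and 197.4 intensity units across the normal samples (1 to 4), against 132.0, 110.1, 81.1 and 79.9 for NcstnΔKC 1 to 4. Its groups were separated, with a log2 difference of -0.72 after scaling. The 20-base probe read 81.6 ± 9.78 in the normal group and 42.1 ± 12.7 in the NcstnΔKC group (SD, n = 4 each), and was detected on 1 of the NcstnΔKC arrays, NcstnΔKC 1. Summing all 4 probes thus added spots near background to the value of this strand.

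**Figure D2:**
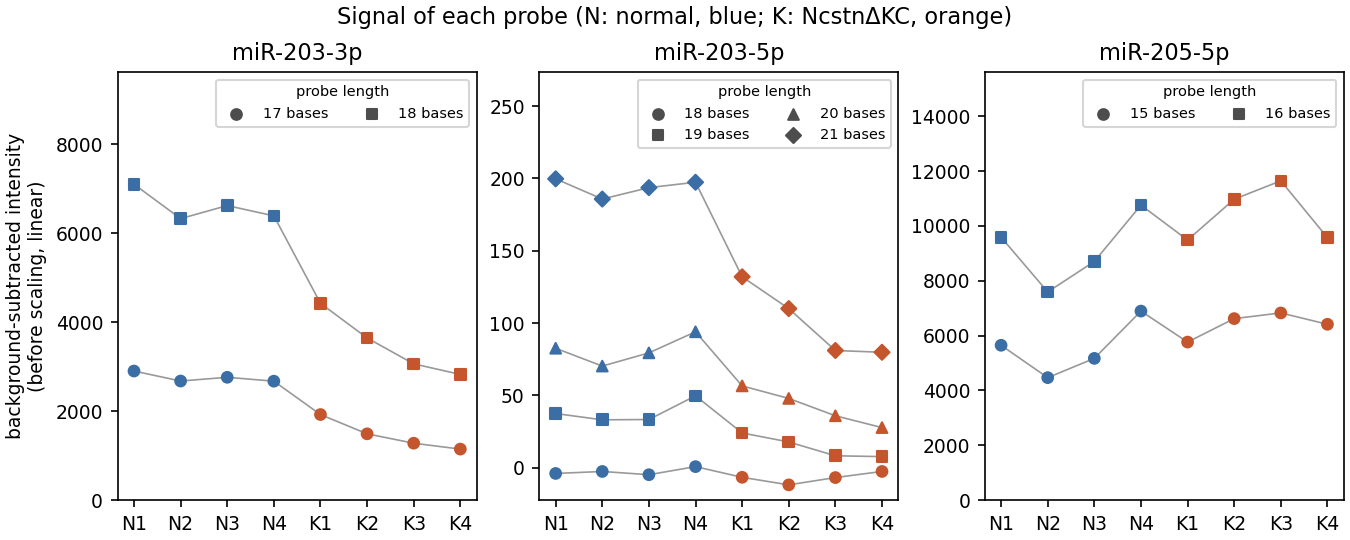
Background-subtracted intensity before scaling (vertical axes, linear, each with its own range) of every probe of the 3 miRNAs on normal arrays (N1 to N4, blue) and NcstnΔKC arrays (K1 to K4, orange); marker shapes give the probe length and the grey lines only join points of a probe. The miR-203-5p probes order by length, from below 1 unit on every array for 18 bases to between 79.9 and 199.8 for 21 bases, and both miR-203-3p probes are lower on all NcstnΔKC arrays.

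The basal keratinocyte miRNA miR-205-5p had scaled log2 signals of 3.58, 3.31, 3.49 and 3.75 in normal 1 to 4. In NcstnΔKC 1 to 4 they were 3.72, 4.25, 4.12 and 3.90. NcstnΔKC 2, 3 and 4 lay above every normal sample and NcstnΔKC 1 lay below normal 4, so the groups overlapped. The group levels were 3.53 ± 0.18 and 4.00 ± 0.24 (SD, n = 4 each). The log2 difference of 0.47 ± 0.17 did not pass (SE, 95% interval 0.08 to 0.85, limma adjusted p = 0.0518). Measured from the median of the tested miRNAs it was 0.70, the 51st largest of 222. Without NcstnΔKC 1 it was 0.57 and passed (adjusted p = 0.0250). Its unscaled signal differed less, the 16-base probe reading 9161 ± 1342 in the normal group and 10419 ± 1064 in the NcstnΔKC group (SD, n = 4 each). On NcstnΔKC 4 the spots of that probe had a coefficient of variation of 22.6%, the highest for this miRNA. The partner strand miR-205-3p, which has 2 probes, was detected on 0 of 8 arrays.

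The ratio of miR-203 to miR-205 on one array does not depend on a scaling factor, which acts on both alike. Since probes differ in brightness, its size says nothing of molecule numbers, and only its change between groups was read. The log2 signal of miR-203-3p minus that of miR-205-5p was -0.61, -0.42, -0.56 and -0.96 across the normal samples (1 to 4), against -1.26, -1.78, -2.09 and -2.01 for NcstnΔKC 1 to 4. All 4 NcstnΔKC samples lay below all 4 normal samples. The mean went from -0.64 ± 0.23 to -1.78 ± 0.37 (SD, n = 4 each), a change of -1.15 or a 2.21-fold lower ratio (exact two-sided permutation p = 0.0286, the smallest that 8 arrays allow; Benjamini-Hochberg adjusted p = 0.0429 over 3 such differences). Of the other 221 tested miRNAs, 42.1% were separated in the same way when set against miR-205-5p, so a fall relative to miR-205-5p was shared by many miRNAs.

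With the 5p strand in place of the 3p strand, the difference from miR-205-5p was -5.59, -5.39, -5.52 and -5.69 across the normal samples (1 to 4), against -6.21, -6.74, -7.28 and -7.15 for NcstnΔKC 1 to 4. The groups were again separated, with a change of -1.30 or a 2.46-fold lower ratio (exact two-sided permutation p = 0.0286, adjusted p = 0.0429). The strands of miR-203 were also set against each other. The 3p strand minus the 5p strand was 4.98, 4.97, 4.96 and 4.73 across the normal samples (1 to 4), against 4.95, 4.97, 5.20 and 5.14 for NcstnΔKC 1 to 4, and these overlapping values differed by 0.15 on average (exact two-sided permutation p = 0.257, adjusted p = 0.257). This difference between strands was below 0 with normexp, in the series matrix and with the mean of log2 over probes. It passed in the first and the last of these (-0.55 and -0.32, exact two-sided permutation, adjusted p = 0.0286 each). The first adds an offset of 50 units to every spot, dim or bright. The last counts every probe of miR-203-5p alike, with the 18-base probe at the floor, the lowest value kept, on 8 arrays and the 19-base probe on 7. The difference between strands ran from -0.55 to 0.16 over the alternatives that kept all 8 samples.

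**Figure D3:**
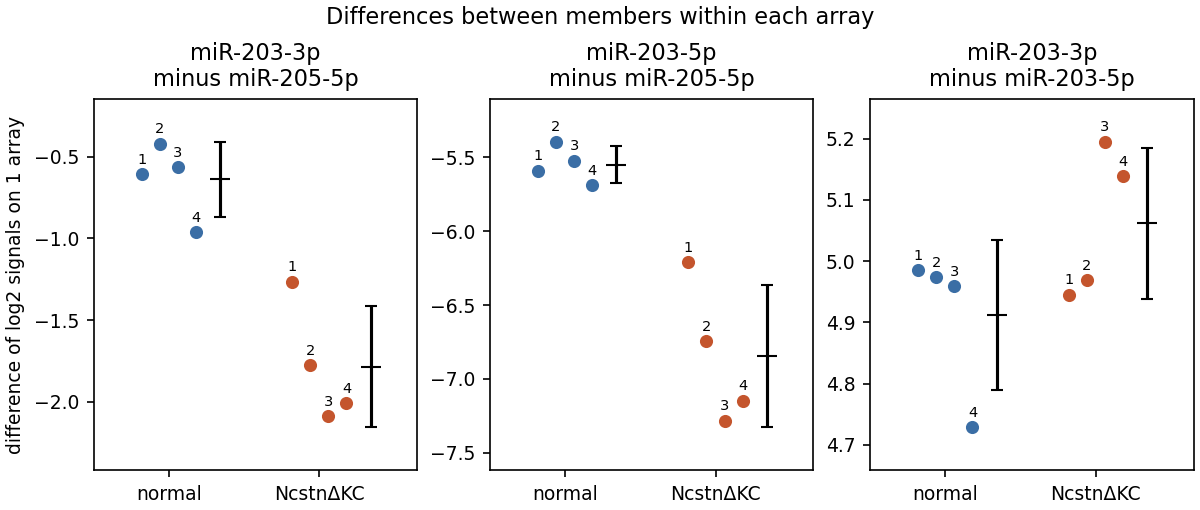
Difference of 2 members' log2 signals on the same array (vertical axes, each with its own range) in normal (blue) and NcstnΔKC (orange) skin; each point is 1 array with its replicate number, and bars are mean ± SD (n = 4). Both strands of miR-203 are lower relative to miR-205-5p on every NcstnΔKC array, while the 2 strands of miR-203 set against each other overlap between the groups.

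The choice of scaling moved all miRNAs together. The median log2 difference of the tested miRNAs was -0.23 as fitted, -0.49 with no scaling, -0.54 with scaling on 4 spiked control RNAs and 0.64 with the 75th percentile over all probes. That last percentile lay near background, at 0.83 to 6.54 intensity units per array. Under it miR-203-3p was at 0.19 and miR-203-5p at 0.04, and miR-205-5p at 1.33, none of them passing (limma adjusted p = 0.900, 0.964 and 0.248). Under the other 7 normalizations miR-203-3p ran from -0.98 to -0.53 and miR-205-5p from 0.16 to 0.70. Measured from that median, miR-203-3p stayed between -0.61 and -0.45 and miR-205-5p between 0.51 and 0.77 over all 8 normalizations. A single factor per array leaves such a value as it is by construction, and the other settings are quantile, cyclic loess, normexp and the series matrix. miR-203-5p was between -0.60 and -0.06 relative to that median, the smallest of these with normexp. That setting adds an offset of 50 units to every spot, which is large beside the signal of dim probes.

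In the authors' normalized series matrix, miR-203-3p went from 11.9 ± 0.10 to 11.2 ± 0.26 (log2 values, SD, n = 4 each; difference -0.66, limma adjusted p = 0.0182). The same values of miR-205-5p went from 12.7 ± 0.16 to 13.2 ± 0.21 (n = 4 each; difference 0.50, limma adjusted p = 0.0467), which passed the threshold that the rescaled scanner signal missed. miR-203-5p differed by -0.57 there and did not pass (limma adjusted p = 0.0614).

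**Figure D4:**
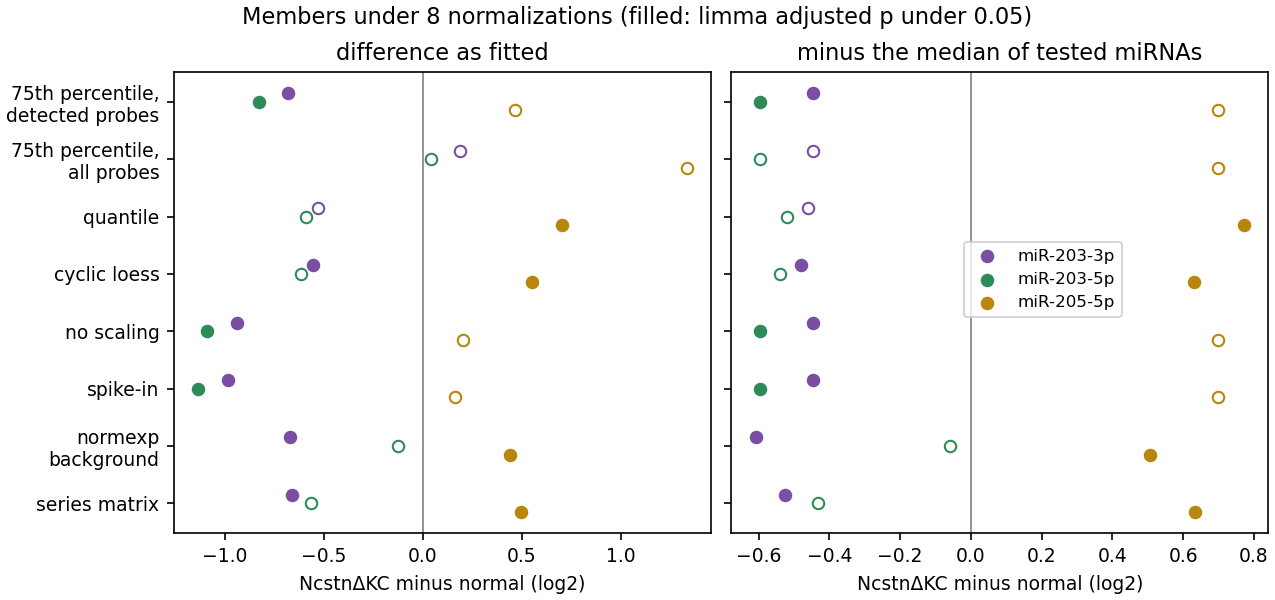
NcstnΔKC minus normal log2 difference of the 3 miRNAs (horizontal axes) under 8 normalizations (rows), as fitted on the left and after subtraction of the median of tested miRNAs on the right; filled points had a limma adjusted p under 0.05 for the difference as fitted. Both miR-203 strands cross 0 as fitted with the percentile over all probes, and on the right miR-203 lies below and miR-205-5p above 0 in every row.

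The miR-200 family represses the mesenchymal factors Zeb1 and Zeb2 and marks epithelia. Of its 10 strands on the array 5 were tested, of which 3 fell, 0 rose and 2 did not pass, with a median log2 difference of -0.58. This compares with 62 falls and 33 rises among all 222 and a median of -0.23. The falls were in miR-429-3p (-0.81 ± 0.16, SE, limma adjusted p = 0.00466), in miR-200a-3p (-0.74 ± 0.18, 0.0120) and in miR-200b-3p (-0.58 ± 0.16, 0.0191). Like miR-203-3p, they turned positive, to 0.06, 0.13 and 0.29, with the percentile over all probes. miR-141-3p and miR-200c-3p, from the other cluster of the family, differed by 0.30 (0.138) and 0.12 (0.618). Against the median of these 5 on the same array, miR-203-3p changed by 0.13 and miR-203-5p by -0.02, with overlapping groups. On that measure miR-205-5p changed by 1.28, from 3.20 ± 0.08 to 4.48 ± 0.10 (SD, n = 4 each). Since 3 of the 5 fell themselves, part of that change lies in the reference, and other tested miRNAs were not set against it. These last differences are given without a test.

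Of 9 other miRNAs known from epidermal growth and differentiation 6 were tested, of which 2 rose, 2 fell and 2 did not pass (median log2 difference -0.15). miR-21a-5p, abundant in proliferating and inflamed tissue (2.51 ± 0.23, limma adjusted p = 0.000477), and miR-99b-5p (0.60 ± 0.14, 0.0100) rose. miR-99a-5p (-0.72 ± 0.16, 0.00972) and miR-125b-5p, known from skin stem cells (-0.53 ± 0.14, 0.0203), fell, and were at 0.15 and 0.34 under the all-probe percentile. miR-31-5p was detected on 4 of 8 arrays, and miR-184-3p and miR-574-3p on 0.

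Among the tested miRNAs detected on all 8 arrays, those with the profile nearest to each member were sought by the root mean square difference over the 8 arrays, after subtraction of each miRNA's own mean. There were 171 candidates. Nearest to miR-203-3p were miR-125b-5p (0.13 log2 units), miR-99a-5p (0.15) and let-7c-5p (0.15), against a median of 0.48 over the candidates. Nearest to miR-203-5p were miR-99a-5p (0.15), miR-100-5p (0.16) and let-7b-5p (0.20), against a median of 0.56. Nearest to miR-205-5p were miR-27b-3p (0.06), miR-125a-5p (0.13) and miR-99b-5p (0.14), against a median of 0.53. Because the likeness was taken over both groups, the direction of a neighbour's group difference was largely fixed by its selection, and the differences are given as a description. They were -0.63 for let-7c-5p, -1.07 for miR-100-5p and -0.76 for let-7b-5p, of which let-7c-5p and let-7b-5p stood at 0.24 and 0.11 when the all-probe percentile was used. Beside miR-205-5p they were 0.51 for miR-125a-5p, 0.60 for miR-99b-5p and 0.42 for miR-27b-3p. Both miR-27b-3p and miR-205-5p were highest in NcstnΔKC 2 and lowest in normal 2.

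**Figure D5:**
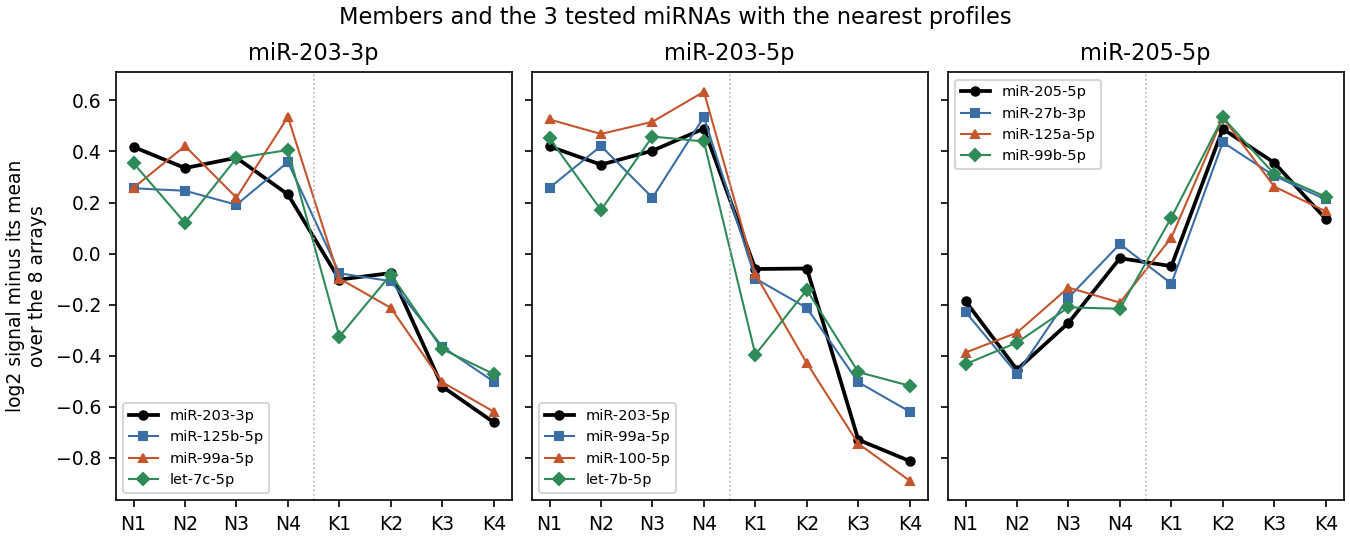
Log2 signal minus its mean over the 8 arrays (vertical axis) for each member (black) and the 3 tested miRNAs nearest to it, on normal arrays (N1 to N4) and NcstnΔKC arrays (K1 to K4); lines join the points of one miRNA and the dotted line parts the groups. Both miR-203 strands are lowest in K3 and K4, as are their neighbours, and miR-205-5p and miR-27b-3p are highest in K2.

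Markers of other cell types moved between the groups as well, and their part in the results for miR-203 and miR-205 was not tested. All 8 white blood cell miRNAs were on the array and 7 were tested, of which 3 rose (miR-511-3p by 2.35, miR-155-5p by 1.26 and miR-142a-3p by 1.52; limma adjusted p = 0.00238, 0.00402 and 0.00792), 0 fell and 4 did not pass. Their summed log2 signal was 1.17 to 1.67 on normal and 1.83 to 3.25 on NcstnΔKC arrays. The brightest of those tested, miR-223-3p, differed by 1.15 with overlapping groups (limma adjusted p = 0.0644) and passed under 0 of 8 normalizations. The others that did not pass, named after their values were seen, were miR-150-5p (0.89, 0.0653), miR-342-3p (-0.00016, 0.999) and miR-146a-5p (-1.08, 0.131). Of 7 striated muscle miRNAs 5 were tested, of which 1 fell (miR-1a-3p, -1.83, limma adjusted p = 0.0451) and 4 did not pass, with summed signals of 4.14 to 6.40 and 2.70 to 5.27. The groups of miR-1a-3p overlapped, and it passed under 3 of 8 normalizations. Also lower, with overlapping groups and without passing, were miR-133a-3p (-1.73, limma adjusted p = 0.0518), miR-133b-3p (-1.69, 0.0557) and miR-133a-5p (-1.84, 0.0575). The remaining one tested, miR-206-3p, named after its value was seen, differed by -1.03 (0.283). miR-208b-3p and miR-499-5p of that list were detected on no array. Of 8 fibroblast and smooth muscle miRNAs, all tested, 3 rose, 2 fell and 3 did not pass, with summed signals of 3.52 to 3.80 and 3.77 to 4.29. The rises were in miR-214-3p (1.21, 0.00404), miR-199a-5p (1.06, 0.0120) and miR-199a-3p (0.69, 0.0227). The falls were in miR-152-3p (-0.58, 0.0340), which was at 0.29 under the all-probe percentile, and in miR-145a-5p (-1.14, 0.0450), the latter named after its value was seen. miR-145a-5p was detected on 1 of 4 NcstnΔKC arrays, passed under 3 of 8 normalizations and differed by as little as -0.15 among them, and miR-152-3p passed under 4 of 8. Of 2 endothelial miRNAs 1 was tested and did not pass, miR-126a-3p (0.15, 0.392), with summed signals of 1.25 to 1.62 and 1.46 to 1.75.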

How the data were processed

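RNA from 8 skin samples was labelled with Cy3 and hybridised to 1-colour arrays, per the labels. Per the file headers, images were read with Agilent Feature Extraction 10.7.1.1, which subtracts a spatially fitted background to give each spot's intensity, with no normalization between arrays. The authors' deposited matrix lists normalized log2 values whose array medians are 3.24 to 3.25, by a method not given in the sources used. Control spots (2164 per array) and outlier spots (2223 to 2940) were left out, and 0 spots were saturated. The floor was 0.0318 (log2 -4.97), and 0 values of the 3 miRNAs lay at it. The comparison used limma 3.58.1 (R 4.3.3) with group as sole term, with Benjamini-Hochberg adjustment over 222 miRNAs detected on all samples of at least 1 group. For differences between members on one array, an exact permutation test (two-sided) ran over all 70 labelings. The fit was tested on simulated data. The members and lists were chosen with earlier results of these data known. Named miRNAs were the members, the 3 nearest profiles to each, every tested miR-200 family member, and up to 4 of each other list by smallest p. Alternatives covered scaling, background, probe summary, floor, filter, design, and leaving out each sample. Scaling on 4 spiked control RNAs and the sum of the software's probe totals were added after the data were seen.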

Additional observations from a re-analysis of the deposited data

Results flagged for a closer look

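The difference between miR-203-3p and miR-203-5p was 4.73 in normal 4, apart from the other 3 normal samples, which lay between 4.96 and 4.98. The gap to the nearest of them made up 0.899 of the group's whole range, above Dixon's 95% critical value for 4 samples. Chance flags about 1 in 20 groups, and 12 groups of values were checked. In normal 4 miR-203-3p was the lowest (2.79) and miR-203-5p the highest (-1.94) of the normal samples. There the 20-base probe of miR-203-5p read 94.0 units, against 70.3 to 82.6 in the other normal samples, and the 19-base probe was detected in no other sample.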

How the results depend on the processing

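The ratio of miR-203-3p to miR-205-5p kept its direction in 11 of 11 alternatives and its call in 10, all but the replicate block. Its changes ran from -1.23 to -1.11, and from -1.32 to -1.04 without 1 sample. Several alternatives could not move this value from -1.15. The levels stayed above both other floors, the replicate block changed only the test, and the software's totals are proportional to the same intensities. For miR-203-5p against miR-205-5p the same counts held and the changes ran from -1.31 to -0.56, and from -1.51 to -1.15 without 1 sample. The floors and the replicate block again could not move the value, here -1.30. The setting with the software's listed totals (-1.15) was no reading of the 5p strand, because that total mostly held the 3p strand. With 7 arrays the smallest exact permutation p is 0.0571, so differences without 1 sample were not tested. With the percentile over all probes, miR-203-3p turned to 0.19, miR-203-5p to 0.039, and 12 miRNAs passed in place of 95. Calls of lower miR-203-3p were lost with quantile normalization (-0.53) and with no filter on dim miRNAs (-0.68, limma adjusted p = 0.139, with 1881 tested). Calls of lower miR-203-5p were lost with quantile normalization (-0.59), cyclic loess (-0.62), normexp (-0.12), the series matrix (-0.57) and no filter (-0.83). miR-205-5p passed with quantile normalization (0.70), cyclic loess (0.55), normexp (0.44), the series matrix (0.50), the mean of log2 over probes (0.47), array weights (0.51) and a trended robust eBayes (0.47). Why calls were lost or gained was not tested. Array weights stopped before convergence. The count of calls was 60 with the software's totals, 19 with no filter, 61 with detection on all 8 arrays (174 tested) and 149 with array weights. Without 1 sample it ran from 58 (without NcstnΔKC 3) to 97, miR-203-3p from -0.75 to -0.57, miR-203-5p from -0.94 to -0.70, miR-205-5p from 0.39 to 0.57, and the difference between the miR-203 strands from 0.09 to 0.19. That difference turned to -0.55 with normexp, -0.094 in the series matrix and -0.32 with the mean of log2 over probes, and was 0.0049 with the software's totals. It passed, unlike as reported, with normexp, the mean of log2 and the software's totals (exact permutation, adjusted p = 0.0286 each), and did not in the series matrix (0.486). In the mean of log2, miR-203-5p probes at the floor counted as much as the brighter ones. Same-numbered samples were not the most alike (correlations of same-numbered deviations from -0.44 to 0.20, and 0 of 4 normal samples correlated best with their own number). Such correlations cannot show whether the design paired the samples, and by the file names same-numbered arrays shared a column of the slide. With the replicate block 71 miRNAs passed, miR-203-3p and miR-203-5p kept their calls (limma adjusted p = 0.0324 and 0.0426) and miR-205-5p did not pass (0.132). With that block the changes of -1.15 and -1.30 against miR-205-5p did not pass (exact sign-flip permutation p = 0.125 each, the smallest 4 pairs can give). The number of arrays and, for miR-203-5p, signal near background limit the precision.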

Other observations

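The scanner software's total signal for miR-203-5p held the total of miR-203-3p. On every array the total listed for miR-203-5p, from 851 to 2154 units, exceeded that of miR-203-3p by a sum of 1 to 3 of its own probes' totals, the nearest such sum differing by at most 0.0073 units. Of the listed miR-203-5p total, 98.2% to 99.1% was thus the 3p strand. For miR-203-3p and miR-205-5p the listed total equalled the sum of their own probes. A total over 1.5 times the sum of a miRNA's own probes was listed for 20 to 28 of the 189 to 216 tested miRNAs detected on an array. The sum of the software's probe totals, which leaves out this excess, gave miR-203-5p a log2 difference of -0.85 (limma adjusted p = 0.0143), against -0.78 from the listed totals. The series matrix values of miR-203-5p, from 3.87 to 5.07 on the log2 scale, did not contain it.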
